A study of Mus musculus with 8 samples.

Results

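The genes described here are 37 genes of glycolysis, pyruvate use and the response to low oxygen, measured by RNA-seq in sorted mouse osteoblasts. They were chosen by name, as gene symbols of the deposited count table, and all 37 were found among its 21154 genes. A filter on low counts left 36 of the 37 among the 15373 genes tested. Egln3 did not pass it and is given as values only.

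The cells came from female Col2.3-GFP mice, in which a fragment of the Col1a1 promoter drives green fluorescent protein in bone-forming cells, and all libraries of both groups carry this reporter. Mice of 8 to 10 weeks were injected intravenously with doxorubicin (5 mg/kg) or phosphate-buffered saline (PBS) 4 times, once a week, and bone was taken 8 weeks after treatment. Doxorubicin is a chemotherapy drug that damages DNA. The 3 PBS libraries and 5 doxorubicin (DOX) libraries were prepared from GFP-positive cells of digested bone chips, named as biological replicates in their titles. Per the labels, batch 1 was made up of DOX replicates 1 and 2 with PBS replicate 1, and batch 2 of the other 5 libraries. For DOX replicate 1 the title says DOX and the treatment tag says PBS. It was counted as DOX. The direction of the fold change turned in 6 of the 36 genes when it was left out and in 8 when it was taken as PBS, and these genes are named with their values.

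Glycolysis turns glucose into pyruvate, which either becomes lactate in the cytosol or enters mitochondria to feed the citric acid cycle. Osteoblasts are known for using glycolysis and making lactate even where oxygen is present. The hypoxia-inducible factors switch on many genes of this pathway. Prolyl hydroxylases and the VHL protein hold their alpha subunits down while oxygen is present, so the factors are controlled largely at the protein level, which RNA counts do not measure.

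The libraries had the profile of osteoblasts, and several stood apart in markers of other cells. The PBS libraries held 40985302 to 44299591 counts each and the DOX libraries 39419027 to 44151882. All 11 osteoblast markers listed had counts in every library. Type I collagen (Col1a1 and Col1a2) took 19.1% of counts in PBS replicate 1 and 23.2% in DOX replicate 1, 26.0% in DOX replicate 4 and 28.0% to 39.5% in the other libraries. Spp1 took 2.88% of counts in PBS replicate 1 and 0.344% to 1.03% elsewhere. The summed level of 7 marrow stromal and adipocyte markers was 749 CPM (counts scaled to a common library size) in PBS replicate 1. It was 210 and 118 CPM in PBS replicates 2 and 3 and 142 to 474 CPM in DOX. The 8 endothelial markers summed to 19.5 CPM in PBS replicate 1 and 19.9 CPM in DOX replicate 2, against 0.936 to 4.67 CPM elsewhere, and 6 of the 8 were at 0 in at least 1 library. PBS replicate 3 held 517 CPM over 6 B cell markers, mostly Ighm, against 4.62 to 43.2 CPM elsewhere. DOX replicate 5 held 126 CPM over 13 neutrophil and macrophage markers, against 3.12 to 51.3 CPM elsewhere. The 11 erythroid markers summed to 261.5 CPM in PBS replicate 1 and 189 CPM in DOX replicate 1, against 80.0 to 123 CPM elsewhere. The 11 skeletal muscle markers found summed to 27.5 to 58.7 CPM in PBS and 36.6 to 50.9 CPM in DOX. For the 5 osteoclast markers found the sums were 278 to 360 CPM in PBS and 334 to 428 CPM in DOX. The 6 chondrocyte markers found, mostly Col2a1, summed to 2732 to 7183 CPM in PBS and 1951 to 5668 CPM in DOX. The 7 tendon and fibroblast markers summed to 29.2 to 38.6 CPM in PBS and 39.9 to 55.4 CPM in DOX, and 3 of the 7 were at 0 in at least 1 library. In that list, Tnmd and Kera were higher in every DOX library than in any PBS library, the pattern of 1.24% of all genes tested. Kera was at 3.28 CPM or less throughout. Scx, Mkx, Dpt, Pi16 and Cd34 overlapped between the groups. The sums of the lists were not tested between groups. In such bulk samples, fewer cells of a type and less RNA per cell cannot be told apart.

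Per kilobase of exon, Ldha stood above all other genes of the group, and Pkm, Gapdh and Eno1 came next. CPM are counts scaled by the TMM-normalized library size, and division by the length of all exons of a gene (GENCODE M21, build GRCm38) makes levels of different genes comparable. Ldha, which encodes the muscle-type subunit of lactate dehydrogenase, stood at 190.5 ± 34.7 CPM per kb (SD, n = 3) in the PBS group and 197 ± 24.0 CPM per kb (SD, n = 5) in the DOX group. Its lowest library, 156 CPM per kb, was above the highest library of Pkm, 130 CPM per kb. Pkm (pyruvate kinase, the step that makes pyruvate) averaged 113 CPM per kb over the 8 libraries. It was followed by Gapdh at 90.3, Eno1 at 71.9, Mpc2 at 67.0, Tpi1 at 59.5 and Aldoa at 48.7 CPM per kb. From Pkm down to Aldoa, the ranges over libraries of each pair of neighbours overlapped. The lowest Aldoa library, 36.0 CPM per kb, was above the highest library of the next gene, Pgk1, at 30.9 CPM per kb. From Pgk1 down to Hk1 the means fell from 25.1 to 11.9 CPM per kb, with overlapping neighbours. The order depended on the gene models. With all annotated transcripts in place of the basic set, Mpc2 moved from rank 5 to rank 19 and Gapdh from rank 3 to rank 6. Tpi1 moved from rank 6 to rank 3 and Aldoa from rank 7 to rank 5, while Ldha and Pkm kept ranks 1 and 2.

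**Figure D1:**
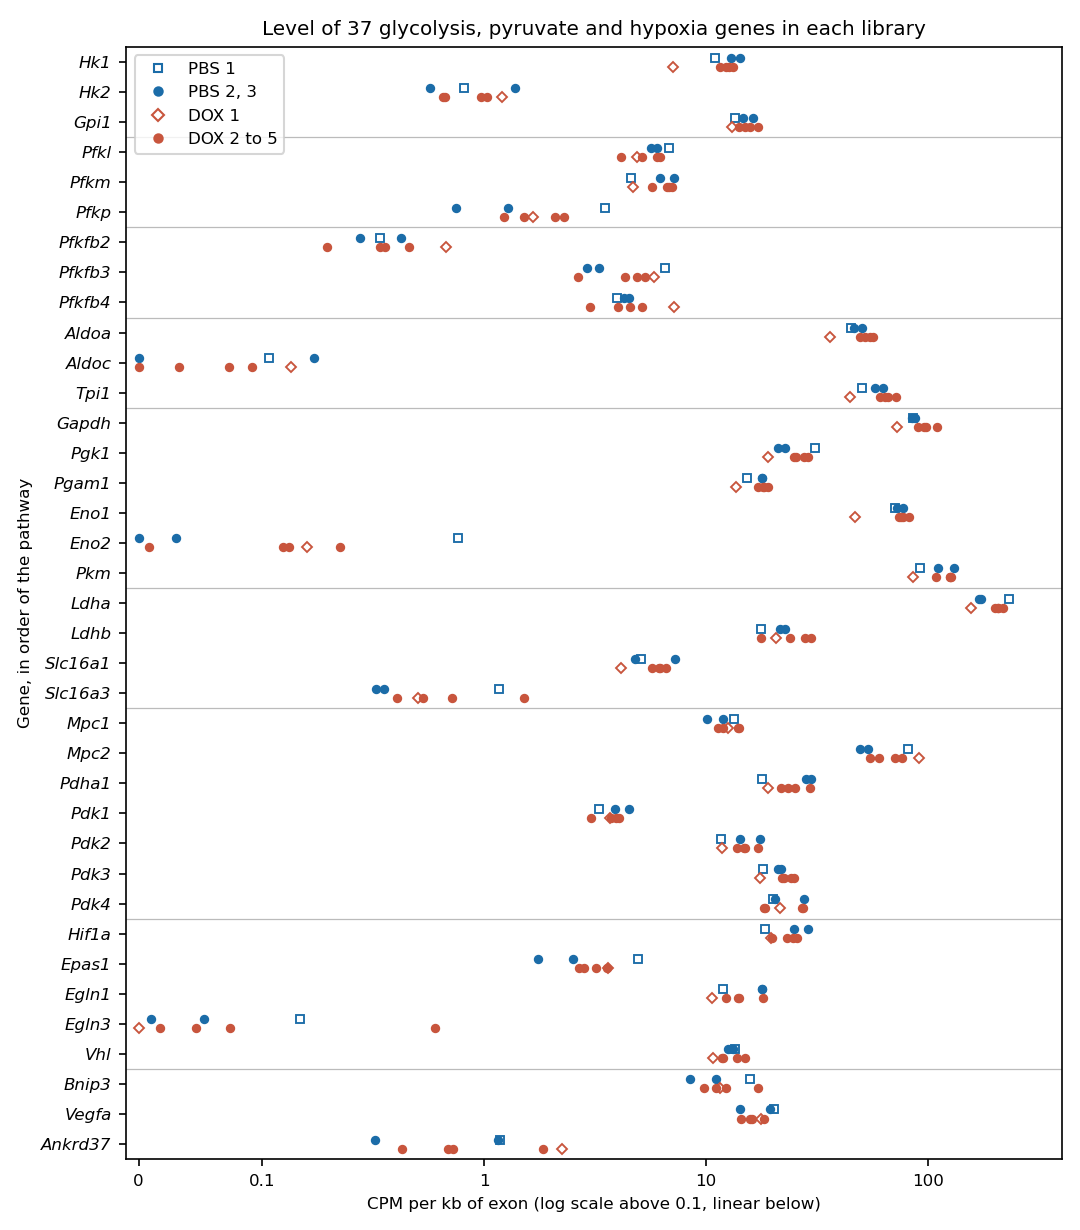
Level of each of the 37 genes in each library, in CPM per kb of exon (horizontal axis, logarithmic above 0.1 and linear below), with genes in pathway order on the vertical axis and grey lines between steps. Blue marks are the 3 PBS libraries and red marks the 5 DOX libraries, and open marks show PBS replicate 1 and DOX replicate 1. Ldha lies between 156 and 231, while Aldoc, Eno2 and Egln3 reach 0 in some libraries.

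The isozymes of a step shared its length-corrected level unequally. Shares were taken within each library over all genes of a family measured here, including Hk3, Eno3, Ldhc, Pfkfb1, Egln2, Slc16a7 and Slc16a8, which are not among the 37. They are medians over the 8 libraries and sums of messages, not of enzyme activity. Ldha held 88.7% of the 3 lactate dehydrogenase genes and Hif1a 88.2% of Hif1a and Epas1. Of the 3 hexokinases Hk1 held 82.1%, Hk3 11% and Hk2 6.15%. In the enolases Eno1 held 74.7% and the muscle enolase Eno3 25.2%, with Eno2 at 0.128%. Slc16a1 held 74.3% of the 4 monocarboxylate carriers, Slc16a8 10.8%, Slc16a3 7.51% and Slc16a7 6.51%. The prolyl hydroxylases were divided between Egln1 at 53.8% and Egln2 at 44.8%, with Egln3 at 0.161%. Phosphofructokinase was divided as well, with 47.1% for the muscle-type gene Pfkm, 40.2% for the liver-type gene Pfkl and 12.6% for the platelet-type gene Pfkp. Among the pyruvate dehydrogenase kinases Pdk4 held 38.1%, Pdk3 34.5%, Pdk2 21.9% and Pdk1 6.2%. Of the enzymes that set the level of the fructose bisphosphate activating phosphofructokinase, Pfkfb4 held 50.2%, Pfkfb3 44.4%, Pfkfb2 3.93% and Pfkfb1 1.73%. In the divided families the order changed between libraries. Pfkl was above Pfkm in PBS replicate 1 and DOX replicate 1, and Egln2 above Egln1 in DOX replicates 1 and 4. Pfkfb3 was above Pfkfb4 in PBS replicate 1 and DOX replicates 2 and 5. Pdk3 was above Pdk4 in PBS replicate 3 and DOX replicates 2 and 5. With all annotated transcripts in place of the basic set, the Eno1 share was 60.9%, that of Pfkm 60.9% and that of Hk1 74%.

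The comparison of DOX with PBS asks whether the osteoblasts differed 8 weeks after doxorubicin. No gene of the group passed the test. With edgeR's quasi-likelihood test, batch as a term and Benjamini-Hochberg adjustment, 0 of 36 had an adjusted p under 0.05, beside 0% of all genes tested. At an unadjusted p under 0.05 the count was 0 of 36, beside 3.71% of all genes. DESeq2 called 0 of the 37 and 26 genes of all (0.123%), and limma-voom with quality weights called 0. At an unadjusted p under 0.05, limma-voom held 3 of 36 (Ldhb, Mpc2 and Egln1) beside 10.2% of all genes, and DESeq2 held 0. The group's fold changes were small: 25 of 36 were above 0, beside 53% of all genes, with a median log2 fold change of 0.06 beside 0.02 over all genes. The number above 0 moved with the settings. It was 31 with plain library totals, where the median of all genes was itself 0.11 (log2), and 17 without DOX replicate 5 or without PBS replicate 3. No gene had its groups apart: 0 of 36 had every DOX library above every PBS library (1.24% of all genes) and 0 every DOX library below (1.19%).

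The intervals give the range of the DOX difference under 1 model, with the same difference in both batches and DOX replicate 1 as DOX. They do not bound a difference within 1 batch, or one with DOX replicate 1 taken as PBS. For 32 of 36 genes the 95% interval of the log2 fold change lay within -1 to 1, which is a 2-fold change in either direction. For 25 of 36 it lay within a 1.5-fold change. The 4 genes with wider intervals than 2-fold were Aldoc, Eno2, Slc16a3 and Ankrd37, which were also among the 7 lowest in level. Their differences were not detectable at this depth and spread.

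**Figure D2:**
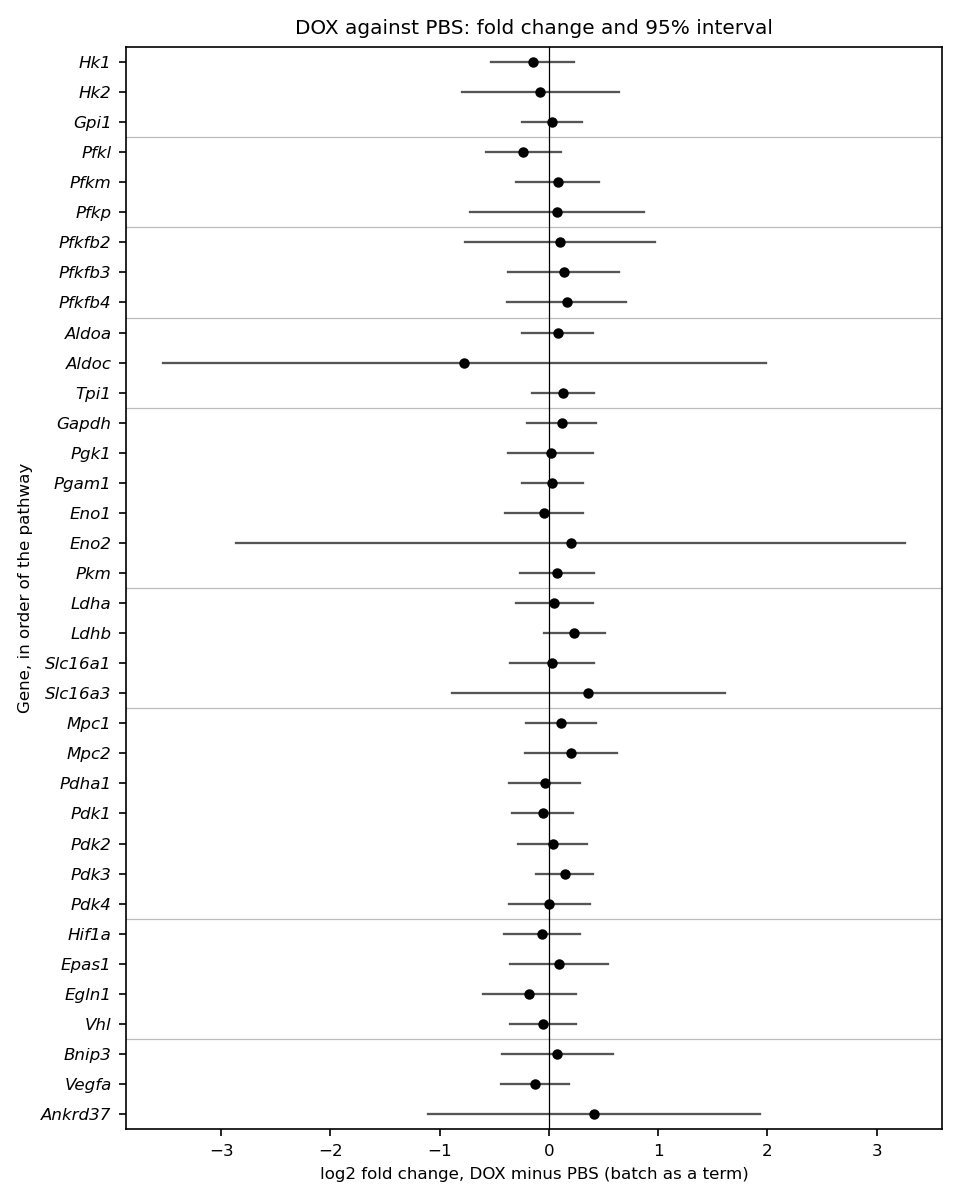
Log2 fold change of DOX against PBS from edgeR with batch as a term (horizontal axis) for the 36 genes tested, in pathway order (vertical axis). Points are estimates and lines are 95% intervals. Every interval crosses 0, and those of Aldoc and Eno2 are the widest.

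The hexokinases, which phosphorylate glucose as it enters the pathway, were represented mostly by Hk1. This gene stood at 53.4, 68.9 and 63.0 CPM in PBS replicates 1 to 3 and at 34.4, 61.3, 64.3, 55.8 and 59.4 CPM in DOX replicates 1 to 5. DOX replicate 1 was well below the other 7 libraries, and the groups overlapped. The log2 fold change was -0.15 ± 0.17 (SE; adjusted p = 0.995, edgeR). It was 0.08 when DOX replicate 1 was counted as PBS. Hk2, the inducible hexokinase, lay between 3.20 and 7.77 CPM with its extremes both in PBS libraries, and Gpi1, which converts the product to fructose phosphate, between 37.6 and 49.4 CPM. Their log2 fold changes were -0.08 ± 0.32 and 0.03 ± 0.12 (SE).

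Phosphofructokinase carries out the committed step. Pfkl stood at 25.5, 21.0 and 22.4 CPM in PBS and at 18.2, 22.4, 19.2, 15.4 and 23.0 CPM in DOX. In 3 of 5 DOX libraries it was below every PBS library, and its log2 fold change was -0.23 ± 0.15 (SE; adjusted p = 0.995, edgeR). Pfkp stood at 15.1, 5.54 and 3.23 CPM in PBS and at 7.15, 8.96, 6.52, 5.29 and 9.80 CPM in DOX. The PBS libraries held both its highest and its lowest value. Its log2 fold change of 0.07 ± 0.36 became 0.72 without PBS replicate 1. Pfkm lay between 13.8 and 21.5 CPM (log2 fold change 0.08 ± 0.17).

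The bifunctional enzymes make or remove the activator of phosphofructokinase, and PFKFB3 favours making it. Pfkfb3 stood at 36.2, 18.3 and 16.1 CPM in PBS and at 32.1, 27.0, 23.9, 14.6 and 29.4 CPM in DOX. PBS replicate 1 and DOX replicate 1, both of batch 1, were the highest of their groups. Its log2 fold change was 0.14 ± 0.23 (SE; adjusted p = 0.995, edgeR) and became 0.41 without PBS replicate 1. Pfkfb4 lay between 10.5 and 24.9 CPM and Pfkfb2 between 0.990 and 3.38 CPM, and both were highest in DOX replicate 1. Their log2 fold changes were 0.16 ± 0.25 and 0.10 ± 0.39. Both turned on that library: without it they were -0.08 and -0.04, and with it taken as PBS -0.27 and -0.20.

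Aldolase and triose phosphate isomerase split the sugar and interconvert the products. Aldoa stood at 116, 119 and 129 CPM in PBS and at 92.4, 140, 133, 126 and 145 CPM in DOX. Tpi1 stood at 88.3, 102 and 110 CPM in PBS and at 78.4, 107, 113, 116 and 126 CPM in DOX. In both genes DOX replicate 1 was the lowest of all libraries and 3 of the 5 DOX libraries were above every PBS library. Their log2 fold changes were 0.08 ± 0.15 and 0.13 ± 0.13 (SE; adjusted p = 0.995 for both, edgeR), and both were 0.23 with that library taken as PBS. Aldoc, the brain-type aldolase, had 17, 0 and 18 counts in PBS and 20, 11, 4, 0 and 9 counts in DOX. The 0 in PBS replicate 2 allows a level of up to 0.0818 CPM and that in DOX replicate 4 up to 0.0693 CPM, from 3 counts per library and for counting error only.

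The lower steps lead from glyceraldehyde phosphate to pyruvate, and Gapdh catalyses the first of them. Gapdh stood at 128, 130.5 and 127 CPM in PBS and at 108, 164, 143, 134 and 146.5 CPM in DOX. All DOX libraries other than replicate 1 were above every PBS library, and the log2 fold change was 0.12 ± 0.14 (SE; adjusted p = 0.995, edgeR). It was 0.20 without DOX replicate 1 and 0.26 with that library counted as PBS. Pkm stood at 238, 287 and 338 CPM in PBS and at 223, 327, 326, 281 and 328 CPM in DOX, so the PBS range covered all DOX libraries but replicate 1. For Pkm the log2 fold change was 0.07 ± 0.15. Pgk1, which makes ATP in this part of the pathway, lay between 34.8 and 56.4 CPM (0.02 ± 0.17), Pgam1 between 24.3 and 33.6 CPM (0.03 ± 0.13) and Eno1 between 119 and 209 CPM (-0.04 ± 0.16). The Eno1 fold change was 0.06 without DOX replicate 1 and 0.16 with it as PBS. Eno2, the neuronal enolase, had 114, 0 and 3 counts in PBS and 22, 14, 15, 1 and 26 counts in DOX. Its value therefore rested on PBS replicate 1, and the 0 in PBS replicate 2 allows up to 0.0818 CPM.

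Lactate dehydrogenase converts pyruvate to lactate and back, and the monocarboxylate carriers move lactate across the membrane. Ldha stood at 437, 320 and 326 CPM in PBS and at 295, 392, 378, 391 and 411 CPM in DOX. The highest library was PBS replicate 1 and the lowest DOX replicate 1, both of batch 1. DOX replicates 2 to 5 lay between them and above the other PBS libraries. The log2 fold change was 0.05 ± 0.16 (SE; adjusted p = 0.995, edgeR), and it was 0.29 without PBS replicate 1, 0.15 without DOX replicate 1 and 0.29 without both. Ldhb, the heart-type subunit, stood at 23.1, 29.5 and 28.0 CPM in PBS and at 26.9, 22.9, 31.2, 38.6 and 36.4 CPM in DOX. All 3 DOX libraries of batch 2 were above every PBS library. Its log2 fold change of 0.23 ± 0.13 (SE; 95% interval -0.05 to 0.51) had the smallest p of the group, at an adjusted p of 0.995 with edgeR. Slc16a1, a carrier found in many tissues, lay between 18.3 and 31.9 CPM (0.03 ± 0.17). Slc16a3, the carrier linked with lactate export from glycolytic cells, was high in PBS replicate 1 at 5.22 CPM and in DOX replicate 5 at 6.73 CPM, and between 1.45 and 3.18 CPM in the other 6 libraries. Its log2 fold change of 0.36 ± 0.56 became 1.27 without PBS replicate 1.

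Pyruvate enters mitochondria through a carrier made of the MPC1 and MPC2 proteins. Mpc1 stood at 19.7, 17.6 and 14.8 CPM in PBS and at 18.5, 17.4, 16.7, 20.6 and 20.5 CPM in DOX. Mpc2 stood at 83.5, 50.5 and 55.0 CPM in PBS and at 92.9, 55.8, 61.7, 78.1 and 72.2 CPM in DOX. The 2 highest Mpc2 libraries were PBS replicate 1 and DOX replicate 1, and the 2 lowest were the other PBS libraries. The log2 fold changes were 0.11 ± 0.14 for Mpc1 and 0.20 ± 0.19 for Mpc2 (SE; adjusted p = 0.995 for both, edgeR), and Mpc2 stood at 0.43 without PBS replicate 1. It stood at 0.12 when DOX replicate 1 was left out and at 0.05 when that library was taken as PBS. The table also lists a processed pseudogene, Mpc1-ps, with 164 to 298 counts per library, up to 36.9% of the Mpc1 count, so the level of Mpc1 is uncertain.

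Pyruvate dehydrogenase commits pyruvate to the citric acid cycle, and its kinases switch it off. Pdha1, its catalytic alpha subunit, stood at 51.1, 84.6 and 80.3 CPM in PBS and at 54.0, 66.8, 83.1, 61.9 and 71.8 CPM in DOX. The PBS libraries again spanned the DOX range, and the log2 fold change was -0.04 ± 0.15, or 0.00 with DOX replicate 1 as PBS. Pdk3 stood at 38.1, 46.0 and 44.6 CPM in PBS and at 37.0, 46.6, 52.6, 50.8 and 47.5 CPM in DOX. In 4 of 5 DOX libraries it was above every PBS library, DOX replicate 1 being the exception, and its log2 fold change was 0.14 ± 0.12 (SE; adjusted p = 0.995, edgeR). Pdk4, the kinase induced by fasting, stood at 69.8, 96.5 and 70.8 CPM in PBS and at 75.1, 63.9, 94.7, 94.3 and 63.2 CPM in DOX. PBS replicate 2 and DOX replicates 3 and 4 were at 94.3 CPM or more and the others at 75.1 CPM or less, and its log2 fold change was 0.00 ± 0.17. It was -0.03 without DOX replicate 1 and -0.06 with it as PBS. Pdk1, a known HIF target, lay between 15.8 and 23.2 CPM (-0.06 ± 0.13) and Pdk2 between 26.3 and 39.1 CPM (0.03 ± 0.14).

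Among the genes of oxygen sensing, Hif1a and Epas1 encode the alpha subunits of HIF-1 and HIF-2. Hif1a stood at 99.9, 157 and 136 CPM in PBS and at 106, 134, 140, 107 and 126 CPM in DOX, inside the PBS range in every DOX library. The log2 fold change was -0.06 ± 0.16. Epas1 stood at 27.2, 13.9 and 9.69 CPM in PBS and at 19.9, 19.7, 17.6, 15.5 and 14.8 CPM in DOX. The 5 DOX libraries lay between PBS replicate 1 and the other PBS libraries, so that the log2 fold change was 0.10 ± 0.20 with all libraries and 0.45 without PBS replicate 1. Without that library its unadjusted p was under 0.05, alone among 36 genes, beside 6.79% of all genes.

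None of the regulators that hold the factors down passed the test. Egln1, the main prolyl hydroxylase, stood at 42.9, 63.8 and 64.4 CPM in PBS and at 38.3, 64.8, 49.9, 44.2 and 50.7 CPM in DOX. The log2 fold change was -0.18 ± 0.19 (SE; adjusted p = 0.995, edgeR). PBS replicate 1 was low and DOX replicate 2 was high. The fold change was -0.40 without PBS replicate 1. It was -0.12 without DOX replicate 1 and -0.01 with DOX replicate 1 as PBS. Vhl lay between 29.9 and 41.6 CPM (-0.06 ± 0.13; 0.01 without DOX replicate 1 and 0.08 with it as PBS). Egln3, a HIF-induced hydroxylase that was not tested, had 21, 1 and 5 counts in PBS and 0, 5, 8, 2 and 66 counts in DOX. Most of its counts came from DOX replicate 5, and the 0 in DOX replicate 1 allows up to 0.0606 CPM.

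Of the HIF targets outside metabolism, Vegfa, the growth factor for blood vessels, stood at 70.8, 49.8 and 68.4 CPM in PBS and at 61.9, 56.8, 64.1, 55.7 and 50.4 CPM in DOX. All DOX libraries lay inside the PBS range, and the log2 fold change was -0.13 ± 0.14 (SE; adjusted p = 0.995, edgeR). Bnip3, which marks mitochondria for removal, lay between 15.8 and 31.7 CPM (0.08 ± 0.23), highest in DOX replicate 5. Ankrd37 lay between 0.300 and 2.08 CPM (0.42 ± 0.68), highest in DOX replicate 1 and next highest in DOX replicate 5. Its fold change was -0.03 without DOX replicate 1 and -0.25 with it as PBS.

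Each library was the highest or the lowest in some of the genes. DOX replicate 1 was the lowest of the 8 libraries in 14 of 36 genes, beside 19.5% of all genes tested. These included Hk1, Gpi1, Aldoa, Tpi1, Gapdh, Pgk1, Pgam1, Eno1, Pkm and Ldha, that is, 10 genes along the path from glucose to lactate. The median deviation of the 36 genes from their own means was -0.21 (log2) in DOX replicate 1 and 0.16 in DOX replicate 5. PBS replicate 1 was the highest library in 8 of 36, beside 18.4% of all genes: Pfkl, Pfkp, Pfkfb3, Pgk1, Eno2, Ldha, Epas1 and Vegfa. PBS replicate 2 was also the highest in 8, beside 11.9% of all genes, and DOX replicate 5 in 7, beside 6.72%. Within the DOX group, 1 library stood far from the other 4 by Dixon's test in 4 of 36 genes (Hk1, Eno1, Eno2 and Ldha), beside 6.94% of all genes. DOX replicate 1 also had the highest share of mitochondrial counts, 1.77%, with PBS replicate 1 at 1.28% and the others at 0.560% to 1.21%. The part of collagen share, mitochondrial share and marrow stromal, endothelial or erythroid markers in these values was not tested.

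**Figure D3:**
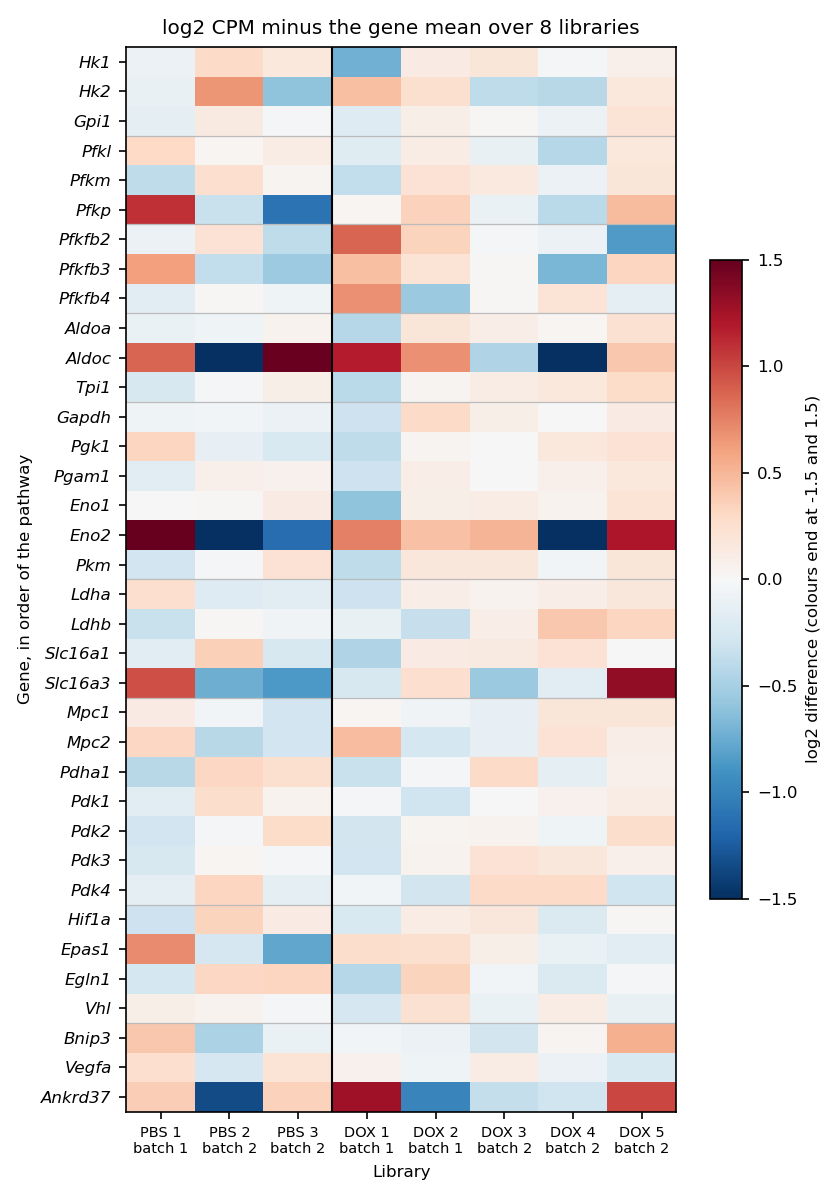
Log2 CPM of each of the 36 genes minus that gene's mean over the 8 libraries, by library (horizontal axis, with batch) and gene in pathway order (vertical axis). Red is above and blue below the mean, colours end at -1.5 and 1.5, and the black line separates PBS from DOX. DOX replicate 1 is blue along most of the glycolytic steps, with a median of -0.21, and DOX replicate 5 is red in most genes.

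Between the batches, with group as a term, 0 of 36 genes passed the adjusted threshold with edgeR, beside 0.0911% of all genes. At an unadjusted p under 0.05 there were 7 of 36, beside 14.6% of all genes. Pfkfb3 (log2 difference -0.64 ± 0.22, batch 2 minus batch 1), Pfkp (-0.79 ± 0.35) and Epas1 (-0.64 ± 0.20) were lower in batch 2. Ldhb (0.44 ± 0.13), Pdha1 (0.41 ± 0.15), Tpi1 (0.32 ± 0.13) and Pdk3 (0.26 ± 0.12) were higher in batch 2. The smallest adjusted p, for Ldhb, was 0.220. Without DOX replicate 2, Mpc2 passed as lower in batch 2 (-0.53, adjusted p = 0.0470, edgeR). In that setting 938 of the 15167 genes tested passed, counting both directions.

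The sign of the difference between DOX and PBS was not the same within the batches for many of the genes. Of the 36 genes, 15 were lower in DOX in batch 1 and higher in batch 2, 11 the reverse, 6 were higher in both and 4 lower in both. Most of these differences were small. The shares over all genes were not taken, so whether these counts are particular to the group was not tested. The direct test of this difference, the interaction of group and batch in edgeR, called 0 of 36 after adjustment, beside 0% of all genes. At an unadjusted p under 0.05 it held 7 of 36, beside 11.7% of all genes, and all 7 were more positive in batch 2, beside 5.31% of all genes. They were Pfkp (1.62 ± 0.53), Pgk1 (0.78 ± 0.26), Eno2 (5.35 ± 2.06), Ldha (0.63 ± 0.26), Slc16a3 (2.21 ± 0.89), Epas1 (0.90 ± 0.31) and Bnip3 (0.89 ± 0.39), as differences of log2 fold changes with SE. Their adjusted p ran from 0.319 to 0.416. Batch 1 held a single PBS library, so these values rest on PBS replicate 1, which was the highest library in 5 of the 7 and second to DOX replicate 5 in Slc16a3 and Bnip3. Batch and that library cannot be told apart. The genes at this unadjusted threshold also changed with DOX replicate 1. With it counted as PBS, batch 1 held a single DOX library. The genes were then Pfkm, Pfkfb4, Mpc2, Hif1a and Egln1, beside 17.6% of all genes, and none of the 7 above. Without DOX replicate 5 they were Pfkp, Pgk1 and Epas1, beside 8.28% of all genes.

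**Figure D4:**
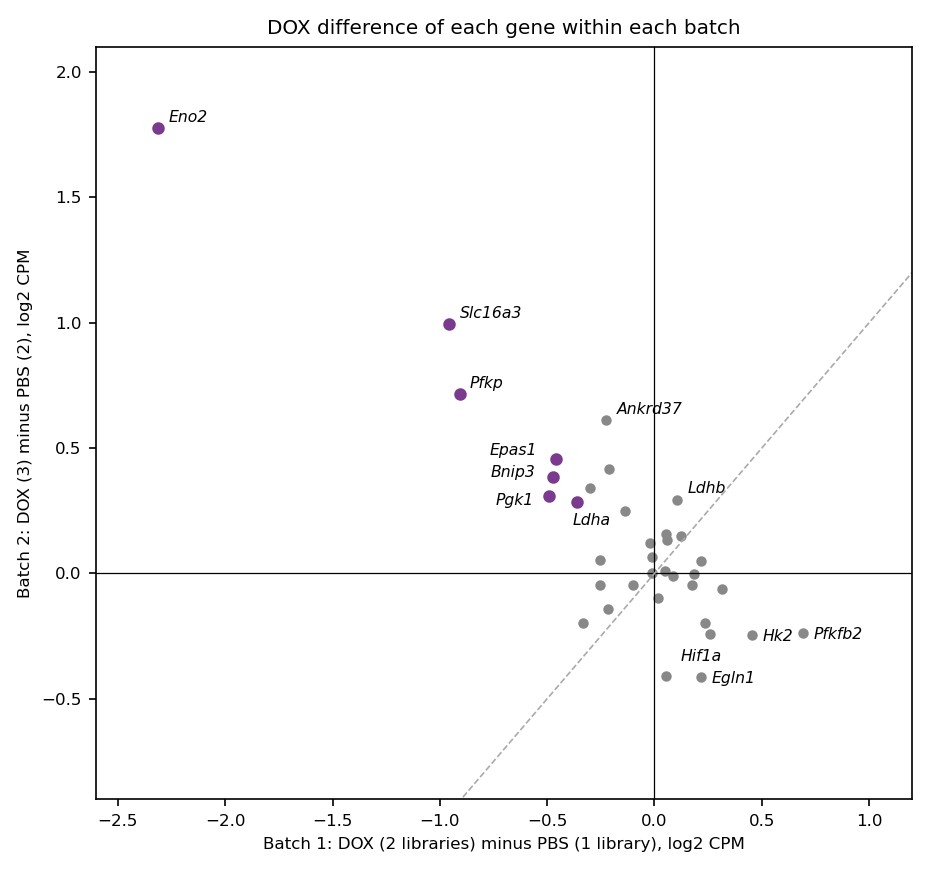
Difference in mean log2 CPM between DOX and PBS within batch 1 (horizontal axis, 2 DOX libraries and 1 PBS library) and within batch 2 (vertical axis, 3 DOX and 2 PBS libraries) for the 36 genes tested. Purple points are the 7 genes with an unadjusted interaction p under 0.05, and the dashed line marks equal differences. The purple points lie in the upper left, lower in DOX in batch 1 and higher in batch 2.

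Within batch 2 alone, 35 of the genes could be tested. Of these, 22 were above 0, beside 51.6% of all genes, and 6 had an unadjusted p under 0.05, beside 12.8% of all genes. In this batch 5 were higher in DOX at an unadjusted p under 0.05 (6.15% of all genes): Mpc2 (log2 fold change 0.43 ± 0.14), Pgk1 (0.31 ± 0.12), Ldhb (0.31 ± 0.14), Ldha (0.29 ± 0.10) and Epas1 (0.44 ± 0.19). Egln1 was lower (-0.40 ± 0.11), beside 6.68% of all genes. None passed after adjustment with edgeR, beside 0% of all genes, and the smallest adjusted p was 0.319, for Mpc2 and Egln1. Of the 35 genes, 9 had all 3 DOX libraries above both PBS libraries, beside 15.8% of all genes, and 1 had them below, beside 15.6%. For Ldha the values were 320 and 326 CPM in PBS and 378, 391 and 411 CPM in DOX. For Pgk1 they were 41.4 and 38.5 CPM in PBS and 45.5, 50.4 and 52.4 CPM in DOX.

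None of the 7 genes with an unadjusted interaction p under 0.05 (edgeR) passed after adjustment. They include known HIF targets, as does the rest of the group. The bases before the starts of the group's genes were read for the core of the hypoxia response element. The cores searched were ACGTG and GCGTG on both strands. CACGTG, which other factors also bind, holds ACGTG on both strands and counts as 2 matches. The sequences are the 250 bases before each annotated start, from RefSeq on GRCm38.p6, and were matched by symbol for 36 of the 37 genes (not Epas1). Of those 36, 32 (88.9%) held a core before at least 1 start. The share was 60.2% of the 10922 tested genes with a sequence and 41.5% of all 27025 genes. Genes with more starts have more places for a match. Counted per start, 42 of 54 (77.8%) held a core, beside 54% of the 13979 starts of tested genes. Ldha, Pgk1, Bnip3 and Eno2 are shown, chosen after their values were seen, because the first 3 hold cores and Eno2, with the largest interaction value, holds none. Capitals mark the cores on either strand.
Ldha, chr7:46845554-46845803, plus strand: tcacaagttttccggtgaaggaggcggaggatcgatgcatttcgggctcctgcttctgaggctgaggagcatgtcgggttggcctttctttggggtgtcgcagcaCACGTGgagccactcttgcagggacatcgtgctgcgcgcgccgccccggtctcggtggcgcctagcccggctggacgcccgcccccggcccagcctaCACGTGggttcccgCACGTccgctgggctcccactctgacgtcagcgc
Pgk1, chrX:106186850-106187099, plus strand: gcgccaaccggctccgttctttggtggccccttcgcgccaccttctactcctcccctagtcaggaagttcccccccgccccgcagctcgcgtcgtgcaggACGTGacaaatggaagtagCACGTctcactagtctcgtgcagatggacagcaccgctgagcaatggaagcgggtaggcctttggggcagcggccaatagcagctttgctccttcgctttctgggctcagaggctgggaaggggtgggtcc
Bnip3, chr7:138909507-138909756, minus strand: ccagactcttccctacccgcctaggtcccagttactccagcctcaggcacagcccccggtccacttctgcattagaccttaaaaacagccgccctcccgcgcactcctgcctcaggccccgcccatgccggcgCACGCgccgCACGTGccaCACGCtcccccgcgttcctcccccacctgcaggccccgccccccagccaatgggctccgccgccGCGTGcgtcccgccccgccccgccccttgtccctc
Eno2, chr6:124769674-124769923, minus strand: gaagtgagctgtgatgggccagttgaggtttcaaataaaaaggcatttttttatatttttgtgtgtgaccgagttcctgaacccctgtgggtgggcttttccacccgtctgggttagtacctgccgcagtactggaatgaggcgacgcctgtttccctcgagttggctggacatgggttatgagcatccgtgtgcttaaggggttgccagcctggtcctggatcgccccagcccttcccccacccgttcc
There were 5 matches before this Ldha start, 2 before Pgk1, 5 before Bnip3 and 0 before Eno2. Pfkp held 3 and Slc16a3 held 2. Since 32 of the 36 genes held a core, a match does not set the genes shown apart from the group. It describes these letters only and says nothing of whether a factor bound there.

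The balance between isozymes was compared as log2 ratios of CPM within each library, where library scaling cancels apart from the prior count. Gene lengths remain in each ratio and cancel only in the difference between groups. Where Aldoc or Eno2 had 0 counts, as in PBS replicate 2, the prior count set the ratio. None of 9 ratios had an unadjusted p under 0.05 in an exact two-sided permutation test over the 56 ways to choose 3 of 8 libraries, where the smallest possible p is 0.0179. The Pfkp to Pfkl ratio was -0.76, -1.92 and -2.78 in PBS and between -1.55 and -1.23 in DOX, a difference of 0.42 (exact permutation p = 0.411). The DOX libraries were close together and lay inside the PBS range. Pfkm to Pfkl differed by 0.29 (exact permutation p = 0.268), the smallest p of the 9. Ldhb to Ldha was -4.24, -3.44 and -3.54 in PBS and between -4.09 and -3.34 in DOX, a difference of 0.14 (exact permutation p = 0.607). The other ratios differed by 0.22 (Hk2 to Hk1), -0.20 (Aldoc to Aldoa), 0.54 (Eno2 to Eno1), 0.31 (Slc16a3 to Slc16a1), 0.09 (Mpc2 to Mpc1) and 0.05 (Pdk4 to Pdk1). The adjusted p of all 9 was 0.857, and no single ratio could have passed, since the smallest adjusted p that 1 ratio alone can reach is 0.161. The test exchanges labels between batches. Within batches, Pfkp to Pfkl differed by -0.57 in batch 1 and 0.91 in batch 2, Eno2 to Eno1 by -2.06 and 1.72, and Slc16a3 to Slc16a1 by -0.94 and 0.93, so opposite differences were pooled.

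In the wider pathways few genes differed even before adjustment. Of 15 tested further genes of glycolysis and glucose supply, 6 were above 0 and 9 below, with a median log2 fold change of -0.01. The 16 of pyruvate and lactate use had 7 above and 9 below (median -0.09), and the 24 of the hypoxia response had 15 above and 9 below (median 0.095), beside a median of 0.02 over all genes. No gene of these lists passed after adjustment with edgeR. At an unadjusted p under 0.05, beside 3.71% of all genes, there were 4 of the 55. Ccng2, a cyclin relative, stood at 23.6, 20.7 and 25.0 CPM in PBS and at 41.6, 25.6, 32.1, 28.3 and 26.0 CPM in DOX (log2 fold change 0.40 ± 0.17). It was higher in 5 of 5 DOX libraries than in any PBS library, the pattern of 1.24% of all genes. Car12, a carbonic anhydrase, stood at 5.15, 7.96 and 2.89 CPM in PBS and at 16.2, 10.7, 16.7, 9.33 and 4.06 CPM in DOX (1.06 ± 0.46). Slc16a7, a further monocarboxylate carrier, stood at 5.78, 7.75 and 5.72 CPM in PBS and at 4.31, 6.08, 4.46, 2.96 and 4.13 CPM in DOX (-0.58 ± 0.25). Without DOX replicate 1 the fold change was 0.27 for Ccng2 and 0.93 for Car12, and with it as PBS 0.10 and 0.57. In 4 of 5 DOX libraries Slc16a7 was below every PBS library. Pfkfb1 (2.27 ± 1.02) was under 1 CPM in every library. The adjusted p of all 4 was 0.995.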

How the data were processed

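Messenger RNA of GFP-positive bone cells was sequenced with the SMART-Seq v4 Plus kit, per the labels' protocols. This kit amplifies cDNA by PCR and does not mark the strand. The authors deposited raw read counts per gene symbol. The submitters' processing notes list STAR 2.7.9a, featureCounts 2.0.1, Trim Galore 0.6.6, SAMtools 1.17, FastQC 0.11.5 and MultiQC 1.7, with build GRCm39. The treatment of strand and of multiply matching reads was not stated in the sources used here. Counts of genes with near-identical copies (Gapdh, Pgk1, Ldha, Ldhb, Pgam1, Tpi1, Gpi1, Mpc1, Eno1) are therefore uncertain, as are those of Hk1, whose antisense gene Hk1os held up to 2.29% of its count. The listed copies other than Mpc1-ps held up to 4.95% of their gene's count. The protocols name no molecular identifiers, and limits cover counting error only. The smallest gene total was 10 counts, so a filter preceded deposit. All rows named a gene.

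Counts were tested in R 4.3.3 with edgeR 4.0.16 (quasi-likelihood test, two-sided, TMM scaling, filterByExpr, batch and group as terms, Benjamini-Hochberg adjustment over all genes tested, threshold 0.05). Each standard error is the fold change over the root of its F statistic. Batch and the interaction of batch and group were tested in the same way. CPM were scaled by TMM-adjusted library sizes, and log2 CPM carry a prior count of 2. DESeq2 1.42.0, limma 3.58.1 (voom with quality weights), other scalings and filters, no batch term, batch 2 alone, a replicate block and omitted libraries were alternatives. The scripts were tested on simulated data. Figures were made in matplotlib 3.10.9 under Python 3.11.15.

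Groups came from the titles. Both groups use the replicate numbers 1 to 3, which no label links to a shared litter or day. Exon lengths came from GENCODE M21 on GRCm38, a build other than the authors' one, and no coordinate of the authors' build was used.

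The genes and lists were chosen with earlier results of these data known. Values in every library are given for the 10 genes of smallest p in DOX against PBS, the gene of highest mean log2 CPM in each step, the 6 of smallest p between batches and any past a threshold. Values of other genes in every library, such as the counts of Aldoc, Eno2 and Egln3 and the batch 2 values of Pgk1, were added after they were seen. The isozymes outside the 37 genes were added to the family shares after values were seen. Of the further pathway lists, genes with an unadjusted p under 0.05 (edgeR) are named. In the cell type marker lists these were Kera, Tnmd, Car2, Hba-a1 and Ighm. None of them passed after adjustment with edgeR, while DESeq2 called Kera and Tnmd.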

Additional observations from a re-analysis of the deposited data

Results flagged for a closer look

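Among the 5 DOX libraries, 4 of the 36 genes had 1 library far from the others by Dixon's test (gap over range above 0.71), beside 6.94% of all genes tested; chance gives this in about 1 group in 20. Hk1 stood at 34.4 CPM in DOX replicate 1, with the other DOX libraries between 55.8 and 64.3 CPM. Eno1 stood at 119 CPM in DOX replicate 1, against 188 to 209 CPM. Ldha stood at 295 CPM in DOX replicate 1, against 378 to 411 CPM. Eno2 stood at 0.0231 CPM in DOX replicate 4, which was 1 count, against 0.347 to 0.628 CPM. DOX replicate 1 is the library whose title and treatment tag disagree. With it counted as PBS, the log2 fold change was 0.08 for Hk1, 0.16 for Eno1 and 0.22 for Ldha, beside -0.15, -0.04 and 0.05 with it as DOX.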

How the results depend on the processing

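With all libraries and edgeR, no gene of the group passed the adjusted threshold in DOX against PBS, and the same held under every alternative run. At an unadjusted p under 0.05 the count rose from 0 to 3 of 36 with limma-voom, beside 10.2% of all genes. In batch 2 alone it was 6 of 35, beside 12.8% of all genes. With replicate 1 of each group left out it was 5 of 36, beside 12.6% of all genes. The count ran from 0 to 4 when 1 library was left out. It was 4 without DOX replicate 2 (Hk1, Ldhb, Mpc2 and Egln1, beside 10.4% of all genes) and 1 without PBS replicate 1 (Epas1). DESeq2 called 26 genes in all for DOX against PBS, 516 between batches and 269 for the interaction, none of them in the group. Genes called between batches numbered 5 with DOX replicate 1 counted as PBS, 0 without PBS replicate 1 and DOX replicate 1 together, and 0 to 938 with 1 library left out; 0 was without PBS replicate 1 and 938 without DOX replicate 2. In the group that count ran from 0 to 1, and the interaction called 0 to 58 genes, with 58 without DOX replicate 2 and 10 without DOX replicate 1. The interaction could not be fitted without PBS replicate 1, since batch 1 then has no PBS library.

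Small fold changes turned direction. Pdk4 was at -0.004 with no filter, -0.089 with limma-voom, -0.014 with no batch term and -0.061 with DOX replicate 1 counted as PBS, and Pfkp at -0.080 with no batch term. With DOX replicate 1 counted as PBS, Hk1 was at 0.082, Pdha1 at 0.001, and the log2 ratios Hk2 to Hk1 at -0.382, Eno2 to Eno1 at -0.178 and Mpc2 to Mpc1 at -0.132. With library totals, a setting chosen after seeing the data, Pdha1 was at 0.045 and Hif1a at 0.023. Hk2 to Hk1 was at -0.102 in batch 2 alone, and Ldhb to Ldha was at -0.143 with PBS replicate 1 and DOX replicate 1 both left out. The cause was not tested.

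With 1 library left out, the log2 fold change ran from -0.010 to 0.166 for Aldoa, -0.132 to 0.447 for Epas1, -0.228 to 0.052 for Hif1a, -0.035 to 0.294 for Ldha, -0.001 to 0.263 for Mpc1, -0.181 to 0.041 for Pdha1, -0.114 to 0.123 for Pdk4, -0.029 to 0.407 for Pfkfb3, -0.294 to 0.725 for Pfkp and -0.029 to 0.159 for Pkm. Differences of log2 ratios ran from -1.277 to 0.448 for Aldoc to Aldoa, -0.623 to 2.159 for Eno2 to Eno1, -0.095 to 0.474 for Hk2 to Hk1, -0.107 to 0.292 for Ldhb to Ldha, -0.061 to 0.218 for Mpc2 to Mpc1, -0.021 to 0.159 for Pdk4 to Pdk1, -0.057 to 0.953 for Pfkp to Pfkl and -0.132 to 0.968 for Slc16a3 to Slc16a1. The number of ratios with an exact permutation p under 0.05 ran from 0 to 1; the 1 was Pfkp to Pfkl without PBS replicate 1.

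The replicate numbers were not shown to pair the samples. Correlations of same-numbered libraries were 0.248, -0.054 and 0.245. PBS replicates 1 and 3 correlated best with the DOX library of the same number, which was of the same batch. PBS replicate 2 correlated best with DOX replicate 3 (0.178). With the replicate block, 0 genes of the group had an unadjusted p under 0.05, 17 of 36 were above 0, and the median was -0.015. Aldoa was then at -0.012, Tpi1 at -0.020, Ldha at -0.018 and Pdk4 at -0.022, and Ldhb was at 0.005 (adjusted p = 1 with edgeR).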
